A study of Homo sapiens with 8 samples.

Results

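The transcription factor NRF2 (gene NFE2L2), its inhibitor KEAP1 and 7 antioxidant genes that NRF2 is known to switch on were followed in human THP-1 cells, an established line of acute monocytic leukemia. The genes were picked by symbol from the deposited table, and all 9 were found among its 60664 genes. They were NFE2L2, KEAP1, NQO1, HMOX1, GCLC, GCLM, SLC7A11, TXNRD1 and SRXN1. Each one passed the filter on low values, at least 1 FPKM (reads scaled by gene length and by library total) in at least 2 of 8 libraries, as 14899 genes in all did. HMOX1 passed it only through parental libraries and SRXN1 only through DAC-resistant ones, so that the filter favoured a difference between the lines for both of them.

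The study asked how cells that no longer respond to decitabine (DAC), a cytidine analogue that lowers DNA methylation once it is built into DNA, differ from cells that do. Parental THP-1 cells and DAC-resistant THP-1 cells were each given DMSO, the solvent, as an untreated control or 1 µM DAC for 6 days, with 2 biological replicates in each of the 4 groups. All of the libraries are labelled wild type. The DAC-resistant line was derived from the parental cells by repeated pulses of DAC over months and was kept without the drug before the experiment, so it is a selected population with a history of the drug in both of its groups. Gene reads recovered from the FPKM values ranged from 27476774 to 31909410 per library, and both of the parental DAC libraries lay below the other 6. Of 10 myeloid genes expected in THP-1 cells, 8 were at 1 FPKM or more in all 8 libraries. Nothing in the labels says how the biological replicates were made, and the p-values measure the spread between these libraries only.

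In resting cells KEAP1 holds NRF2 in the cytoplasm and hands it to a ubiquitin ligase for degradation. Oxidants and electrophiles modify cysteines of KEAP1, NRF2 then accumulates and enters the nucleus, where it pairs with small MAF proteins on antioxidant response elements. Most of this control acts on the protein, so the amount of NFE2L2 transcript is not a reading of NRF2 activity. The best known targets make glutathione (GCLC, GCLM, SLC7A11), recycle thioredoxin and peroxiredoxin (TXNRD1, SRXN1), reduce quinones (NQO1) and break down heme (HMOX1). HMOX1 is also held down by the repressor BACH1, and SLC7A11 is also a target of the amino acid stress factor ATF4.

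Promoter sequences of 7 of the 9 genes, 10 start sites in all, were taken from RefSeq on GRCh38.p14 and searched on both strands for the core of the antioxidant response element, TGACNNNGC. Each promoter ran from 250 bases before to 50 bases after a start. The core was present in 4 of the 10 promoters, beside 13.3% of all 35116 promoters of that length. The 4 belong to GCLM, KEAP1 and both starts of TXNRD1, and they are shown because the expression of these genes can be read against the site. Each sequence is given 5′ to 3′ on the strand of its gene, with the core, or its reverse complement, in capitals.
GCLM, chr1:93909446-93909474, minus strand, 34 to 26 bases before the start: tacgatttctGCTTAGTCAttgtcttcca
KEAP1, chr19:10502807-10502835, minus strand, 54 to 46 bases before the start: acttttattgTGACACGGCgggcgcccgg
KEAP1, chr19:10502784-10502812, minus strand, 31 to 23 bases before the start: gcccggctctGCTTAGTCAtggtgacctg
TXNRD1, chr12:104215670-104215698, plus strand, 99 to 91 bases before the start: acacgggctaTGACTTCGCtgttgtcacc
TXNRD1, chr12:104215761-104215789, plus strand, reaching from 8 bases before to the start itself: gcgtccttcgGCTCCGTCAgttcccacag
TXNRD1, chr12:104286920-104286948, plus strand, 102 to 94 bases before its other start: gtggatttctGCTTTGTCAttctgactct
The AP-1 site TGACTCA was in 0 of the 10 promoters and in 4.95% of all promoters, and the ATF4 element TGATGNAA was in 0 of the 10 and in 3.62% of all. A match of letters describes a sequence and does not show that a factor binds there. Sites outside this window were not searched, so a promoter without a match does not show that its gene lacks the element. HMOX1 and SLC7A11 were not in the promoter table.

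The 9 genes covered a wide range of levels. NQO1 had the highest mean over the 8 libraries at 45.1 FPKM, followed by TXNRD1 at 37.5, NFE2L2 at 22.3, SLC7A11 at 19.0, KEAP1 at 18.8, GCLM at 15.8, HMOX1 at 5.88, GCLC at 3.69 and SRXN1 at 0.851 FPKM. The place of HMOX1 rests on the 2 parental DAC libraries, since it was below GCLC in the other 6, and TXNRD1 was above NQO1 in both of the parental DMSO libraries. SLC7A11 and KEAP1 are neighbours whose ranges overlapped, from 6.32 to 30.5 and from 15.4 to 24.9 FPKM, and so did those of NFE2L2 and SLC7A11. The highest library was 53.8 times the lowest for HMOX1, 4.83 times for SLC7A11, 3.73 times for SRXN1, and between 1.17 times (TXNRD1) and 1.94 times (NQO1) for the other 6 genes.

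**Figure D1:**
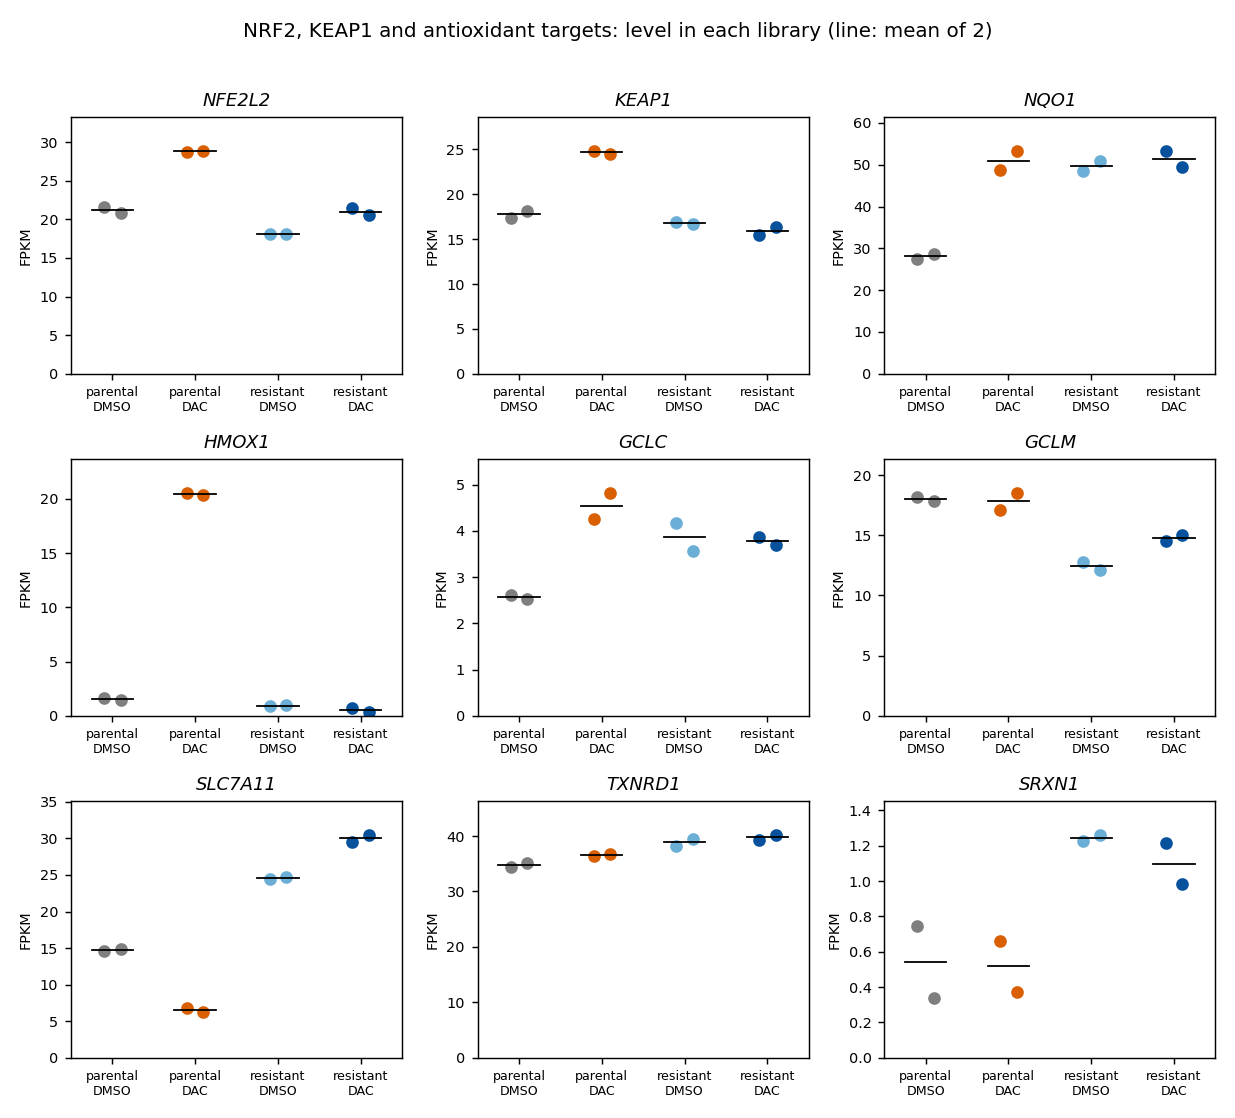
FPKM of each of the 9 genes (y axis, starting at 0) in the 8 libraries, grouped by cell line and treatment on the x axis, with 1 point per library and a line at the mean of 2. HMOX1 is high only in parental cells with DAC (20.3 and 20.6 FPKM), SLC7A11 is lowest there, and NQO1 is low only in parental cells with DMSO.

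Parental cells treated with DAC raised the transcript of the heme enzyme HMOX1 13.3-fold and lowered that of the cystine transporter SLC7A11 to 0.446 of its DMSO level. NQO1 and GCLC rose 1.81-fold and 1.77-fold, and the 2 regulators NFE2L2 and KEAP1 rose 1.36-fold and 1.39-fold. In DAC-resistant cells the members that passed the test, NFE2L2, GCLM and SLC7A11, rose by 1.16-fold to 1.22-fold. Counted by an adjusted p under 0.05 in limma, 5 members rose and 1 fell with DAC in parental cells, where 33.6% of all genes tested were called higher and 24.1% lower. This balance of all genes turned over with quantile normalization (26.8% and 32.6%) and upper-quartile scaling (25% and 32.5%), under which 5 members still rose and 1 or 2 fell. In DAC-resistant cells 3 members rose and 0 fell, where 5.88% of all genes were called higher and 5.35% lower. Each of these 3 calls was lost on leaving out single libraries, and the calls over all genes fell in each such fit. By a stricter rule, which asks for a log2 fold change of 1 or more either way and an unadjusted p of at most 0.01, 2 members (HMOX1 and SLC7A11) were called in parental cells, beside 9.31% of all genes, and 0 in DAC-resistant cells, beside 0.235%.

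NFE2L2 (ENSG00000116044, chr2:177218667-177392756, minus strand), which encodes NRF2 itself, was at 21.6 and 20.8 FPKM in untreated parental cells and at 28.7 and 28.9 FPKM with DAC. The DAC-resistant libraries were at 18.2 and 18.1 FPKM with DMSO and at 21.4 and 20.6 FPKM with DAC. The groups did not overlap within either line, and DAC-resistant cells with DAC averaged 99.1% of the level of untreated parental cells. The rise was 0.43 on the log2 scale of FPKM + 1 in parental cells (SE 0.033, limma adjusted p = 7.2e-05) and 0.20 in DAC-resistant cells (SE 0.033, adjusted p = 0.016). The second of these calls was lost when any 1 of the 4 DAC-resistant libraries was left out (adjusted p from 0.051 to 0.079, and from 0.00074 to 0.079 over all alternatives). The gene overlaps exons of HNRNPA3 on the opposite strand over 23.4% of its GENCODE exon bases, and HNRNPA3 was at 62.1 to 84.9 FPKM. Whether counting used the strand is not stated. Reads in the overlap may have been left out or given to either gene, so that the level of NFE2L2 is uncertain.

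KEAP1 (ENSG00000079999, chr19:10486125-10503558, minus strand), the adaptor that presents NRF2 for degradation, was at 17.4 and 18.2 FPKM in untreated parental cells and at 24.9 and 24.5 FPKM with DAC. Its levels in the DAC-resistant line were 16.9 and 16.6 FPKM under DMSO and 15.4 and 16.4 FPKM under DAC. The parental DAC libraries were thus the highest 2 of the 8. The difference was 0.45 in the parental line (SE 0.04, limma adjusted p = 0.00013) and -0.075 in the resistant one (95% interval -0.172 to 0.021, adjusted p = 0.29). With both genes higher under DAC, the parental ratio of NFE2L2 to KEAP1 was 1.24 and 1.14 with DMSO and 1.16 and 1.18 with DAC. In the DAC-resistant line the ratio was 1.07 and 1.09 under DMSO, then 1.39 and 1.26 under DAC.

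**Figure D2:**
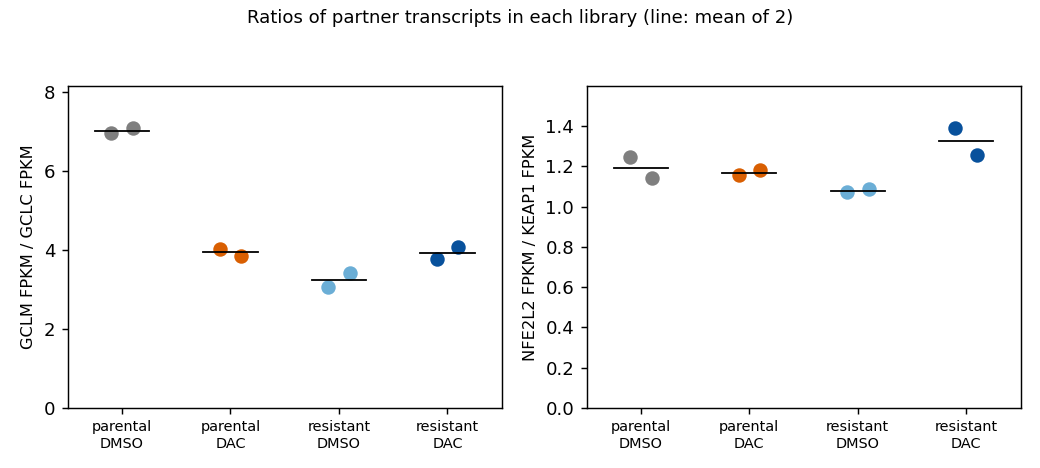
Ratio of the FPKM of GCLM to GCLC (left) and of NFE2L2 to KEAP1 (right) on y axes that start at 0, with 1 point per library and a line at the mean of 2 in each group. GCLM to GCLC is near 7 in parental cells with DMSO and between 3.06 and 4.07 in the other 6 libraries.

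HMOX1 (ENSG00000100292, chr22:35380361-35394214, plus strand) encodes heme oxygenase 1, which opens heme to biliverdin, carbon monoxide and iron. It was at 1.64 and 1.44 FPKM in parental cells with DMSO (120 and 101 reads) and at 20.6 and 20.3 FPKM with DAC (1305 and 1289 reads). The DAC-resistant line had 0.907 and 0.981 FPKM with DMSO (66 and 68 reads) and 0.734 and 0.382 FPKM with DAC (54 and 27 reads). The parental DAC libraries stood far above all others, and the DAC-resistant DAC libraries were the lowest. The change with DAC was 3.08 in parental cells (SE 0.113, limma adjusted p = 2.6e-06). It was -0.33 in DAC-resistant cells (95% interval -0.60 to -0.06), which did not pass (adjusted p = 0.12, and 0.046 to 0.54 over all alternatives). The value was -0.49 without the first DAC-resistant DAC library, where it passed (adjusted p = 0.046), and -0.165 without the second, and it was -0.72 with a pseudocount of 0.1, -0.56 with TPM and -0.81 with voom on the recovered reads. The value of 0.382 FPKM rests on 27 reads, with a 95% Poisson interval of 0.252 to 0.556 FPKM that covers counting error only.

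Of 11 other genes of heme and iron handling 10 were tested. With DAC in parental cells, 7 of the 10 rose and 1 fell, beside 33.6% and 24.1% of all genes, with a median of 0.48 beside 0.057 for all genes tested. The 3 with the largest changes were FTH1 (1.79) and FTL (0.80), the heavy and light chains of the iron store ferritin, and TFRC (1.59), the receptor that takes up transferrin iron. FTH1 was at 117.8 and 120.4 FPKM with DMSO and at 425.4 and 406.4 FPKM with DAC in parental cells, and at 136.5 to 141.6 FPKM in DAC-resistant cells with DAC. In DAC-resistant cells 0 of the 10 rose and 1 fell, beside 5.88% and 5.35% of all genes, and that was TFRC, by 0.57. Ferritin genes have many processed copies in the genome, so reads could be split between them and these values are uncertain.

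Markers of monocytes and macrophages moved with HMOX1. Of 16 such genes 11 were tested, and with DAC 10 rose and 0 fell in parental cells (median 1.31), beside 33.6% and 24.1% of all genes. In the DAC-resistant line 0 rose and 0 fell (median -0.066), beside 5.88% and 5.35%. Among the largest rises were those of CD14 (3.05), a co-receptor for lipopolysaccharide, and CD86, a co-stimulatory ligand (0.303 and 0.163 FPKM with DMSO, 8.93 and 8.82 FPKM with DAC). CD86 reached 1 FPKM in no other group, and CD68 would not have passed the filter without the parental DAC libraries. The filter thus favoured both rises, and neither is support for the count. The summed level of the 16 markers was 111.1 to 111.7 FPKM in parental cells with DMSO, 239.6 to 247.5 with DAC, 71.3 to 73.2 in DAC-resistant cells with DMSO and 66.5 to 71.4 with DAC. None of the 16 was at 0 in all 8 libraries, and LYZ and CD68 are also among the genes expected in THP-1 cells. The part of these markers in the HMOX1 values was not tested, and in bulk RNA more cells of a kind and more RNA per cell cannot be told apart. Markers of T cells summed to 0.737 FPKM at most, and those of erythroid cells to 3.20. Megakaryocyte markers summed to 0.509 to 0.544 FPKM in untreated parental cells, 3.92 to 4.54 FPKM after DAC and 0.273 to 0.426 FPKM in the DAC-resistant line, and markers of B and plasma cells to 5.96 to 6.58, 9.93 to 10.8 and 7.54 to 8.27 FPKM. Epithelial and stromal markers summed to 0.754 to 0.869 FPKM in untreated parental cells and 6.05 to 7.13 FPKM after DAC, and in the DAC-resistant line to 6.19 to 6.21 FPKM under DMSO and 4.6 to 4.71 FPKM under DAC.

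NQO1 (ENSG00000181019, chr16:69706996-69726668, minus strand) encodes a quinone reductase and is the target most often used to read NRF2 activity. It was at 27.5 and 28.7 FPKM in untreated parental cells and at 48.8 and 53.2 FPKM with DAC. The 4 DAC-resistant libraries read 48.6 and 50.9 FPKM (DMSO) and 53.4 and 49.5 FPKM (DAC). The parental DMSO libraries stood alone at the low end, and the other 6 libraries overlapped. DAC-resistant cells with DMSO averaged 97.5% of the level of parental cells with DAC. The rise with DAC was 0.84 in parental cells (SE 0.056, limma adjusted p = 3.6e-05) and 0.047 in DAC-resistant cells (95% interval -0.087 to 0.181, adjusted p = 0.66).

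Of 12 other genes of quinone and carbonyl detoxification that were tested, 7 rose and 2 fell with DAC in parental cells (median 0.47), beside 33.6% and 24.1% of all genes. In DAC-resistant cells 1 rose and 0 fell (median -0.013), beside 5.88% and 5.35%. The largest rises in parental cells were those of AKR1C3 (1.76) and AKR1C2 (0.65), aldo-keto reductases, and CBR1 (1.47), a carbonyl reductase. AKR1C3 was already at 34.6 and 32.7 FPKM in untreated DAC-resistant cells, beside 1.28 and 1.46 FPKM in untreated parental cells and 6.60 and 7.43 FPKM in parental cells with DAC. AKR1C2 was at 0.586 and 0.628 FPKM in untreated parental cells and at 74.9 and 74.4 FPKM in DAC-resistant cells with DMSO. CBR1 was at 2.23 and 1.71 FPKM in parental cells with DAC and at 0.121 FPKM at most elsewhere, so it passed the filter only through the group where it was high and its rise was favoured by the filter. The AKR1C genes are near-identical copies, so that their reads could be split and the values of single members are uncertain.

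Glutathione is made in 2 steps, and the first, rate-limiting one needs a catalytic subunit (GCLC) and a modifier subunit (GCLM). GCLC (ENSG00000001084, chr6:53497341-53616970, minus strand) was at 2.62 and 2.52 FPKM in untreated parental cells and at 4.25 and 4.83 FPKM with DAC. The DAC-resistant libraries were at 4.17 and 3.56 FPKM with DMSO and at 3.86 and 3.69 FPKM with DAC. As with NQO1, the parental DMSO libraries were the lowest 2 and the DAC-resistant groups overlapped with each other. The change with DAC was 0.63 in parental cells (SE 0.085, limma adjusted p = 0.00083) and -0.024 in DAC-resistant cells (95% interval -0.228 to 0.179, adjusted p = 0.90).

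GCLM (ENSG00000023909, chr1:93885199-93909456, minus strand) behaved otherwise than GCLC. Its promoter holds the antioxidant core shown above, and sites of GCLC outside the window searched are not known here. It was at 18.2 and 17.8 FPKM in untreated parental cells and at 17.1 and 18.5 FPKM with DAC, groups that overlapped. Its levels in the DAC-resistant line were 12.8 and 12.1 FPKM under DMSO and 14.5 and 15.0 FPKM under DAC, all below every parental library. DAC changed it by -0.014 in parental cells (95% interval -0.130 to 0.101, limma adjusted p = 0.82; -0.149 and adjusted p = 0.028 with upper-quartile scaling, 0.028 being the lowest over all alternatives) and by 0.23 in the resistant line (SE 0.048, adjusted p = 0.032). The latter call was lost with the replicate number as a block (adjusted p = 0.057) and on leaving out any library but the parental DAC ones (adjusted p from 0.058 to 0.15), and over all alternatives the adjusted p ranged from 0.0018 to 0.18. The ratio of GCLM to GCLC was 6.96 and 7.08 in untreated parental cells and 4.03 and 3.84 after DAC, while the DAC-resistant line had 3.06 and 3.41 under DMSO and 3.76 and 4.07 under DAC.

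SLC7A11 (ENSG00000151012, chr4:138164097-138242349, minus strand) encodes the light chain of the cystine-glutamate exchanger, which brings in the cysteine for glutathione. It was at 14.5 and 14.8 FPKM in untreated parental cells and at 6.77 and 6.32 FPKM with DAC. The 4 DAC-resistant libraries read 24.4 and 24.7 FPKM (DMSO) and 29.5 and 30.5 FPKM (DAC). No 2 of the 4 groups overlapped, and DAC moved the gene in opposite directions in the 2 cell lines. The change was -1.06 in parental cells (SE 0.04, limma adjusted p = 3e-06) and 0.28 in DAC-resistant cells (SE 0.04, adjusted p = 0.0097). The smaller of them was lost on leaving out either DAC-resistant DMSO library or the second DAC-resistant DAC library (adjusted p from 0.052 to 0.070, and from 3.4e-08 to 0.070 over all alternatives). Its partner chain SLC3A2 fell by 0.24 in parental cells (adjusted p = 0.026), and in DAC-resistant cells the difference was 0.23 (adjusted p = 0.087).

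Genes of the ATF4 amino acid response, which share a regulator with SLC7A11, moved with it. Of 24 tested, 3 rose and 21 fell with DAC in parental cells (median -0.94), beside 33.6% and 24.1% of all genes, and 17 rose and 0 fell in the DAC-resistant line (median 0.30), beside 5.88% and 5.35%. The largest falls in parental cells were those of PSAT1 (-2.75), an enzyme of serine synthesis, ALDH1L2 (-2.56), a mitochondrial folate enzyme, and INHBE (-2.52), a secreted activin subunit. PSAT1 was at 259.7 and 261.7 FPKM in parental cells with DMSO, at 36.3 and 39.9 FPKM with DAC, and at 392.3 to 515.6 FPKM in the DAC-resistant libraries. The largest rises in DAC-resistant cells were those of TRIB3 (1.64), PCK2 (0.84) and DDIT4 (0.57). The ATF4 transcript itself fell by 0.94 in parental cells (adjusted p = 6.3e-07) and rose by 0.26 in the resistant line (adjusted p = 0.0025). The part of ATF4 in the SLC7A11 values was not tested.

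Of 24 genes tested on the wider glutathione list, 9 rose and 10 fell with DAC in parental cells (median 0.061), beside 33.6% and 24.1% of all genes, and 2 rose and 1 fell in the DAC-resistant line (median 0.020), beside 5.88% and 5.35%. The share that rose was near that of all genes in both lines, while the share that fell in parental cells, 10 of 24, was above the 24.1% of all genes. GPX3, among the genes that rose in parental cells, would not have passed the filter without the parental DAC libraries, so it is no support for the count. CHAC1, which degrades glutathione and is also on the ATF4 list, fell by 1.94 in parental cells, from 14.3 and 15.2 FPKM to 2.96 and 3.27 FPKM. GSTA4, a glutathione transferase, fell by 1.47, and ABCC1, an exporter of glutathione conjugates, rose by 1.46. Of 7 enzymes that supply NADPH, the reductant of all of these systems, 2 rose and 4 fell in parental cells (median -0.27), beside the same 33.6% and 24.1%.

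TXNRD1 (ENSG00000198431, chr12:104215779-104350307, plus strand) encodes thioredoxin reductase 1 and carries 3 antioxidant cores in its promoters. It was at 34.3 and 35.1 FPKM in untreated parental cells and at 36.3 and 36.8 FPKM with DAC. The DAC-resistant libraries were at 38.2 and 39.5 FPKM with DMSO and at 39.3 and 40.3 FPKM with DAC. The gene was the flattest of the 9, although the DAC-resistant libraries all lay above the parental ones. DAC changed it by 0.073 in parental cells (95% interval 0.003 to 0.144, limma adjusted p = 0.072) and by 0.033 in the resistant line (95% interval -0.038 to 0.103, adjusted p = 0.54). The first of these differences changed sign with quantile normalization (-0.004) and with upper-quartile scaling (-0.066).

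SRXN1 (ENSG00000271303, chr20:646615-653200, minus strand) encodes sulfiredoxin, which restores peroxiredoxins that were oxidized too far. It was at 0.749 and 0.339 FPKM in parental cells with DMSO (60 and 26 reads) and at 0.662 and 0.374 FPKM with DAC (46 and 26 reads). The DAC-resistant line had 1.23 and 1.26 FPKM with DMSO (98 and 96 reads) and 1.22 and 0.982 FPKM with DAC (98 and 76 reads). The groups given DMSO and DAC overlapped in parental cells, and every DAC-resistant library lay above every parental one. DAC changed it by -0.018 in parental cells (95% interval -0.410 to 0.374, limma adjusted p = 0.93) and by -0.10 in the resistant line (95% interval -0.493 to 0.292, adjusted p = 0.76). The parental DMSO replicates differed by more than counting error, with 95% Poisson intervals of 0.571 to 0.963 and 0.222 to 0.497 FPKM. The gene shares 90.7% of its exon bases with ENSG00000270299 on the same strand, which was at 0 to 0.105 FPKM. Reads that fit both genes may have been left out by the counting, so that the level of SRXN1 is uncertain.

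Of the wider thioredoxin and peroxiredoxin list, 6 of 13 rose and 3 fell with DAC in parental cells (median 0.134), beside 33.6% and 24.1% of all genes, and 1 rose and 3 fell in the DAC-resistant line (median -0.091), beside 5.88% and 5.35%. SOD2, the mitochondrial superoxide dismutase, rose by 1.57 in parental cells, and PRDX4 and PRDX1, both peroxiredoxins, rose by 0.55 and 0.46. In DAC-resistant cells PRDX1 fell by 0.33 (adjusted p = 0.0033), and TXNIP, which binds and inhibits thioredoxin, rose by 0.70 (adjusted p = 0.0003). Partners and regulators of NRF2 gave 6 higher and 2 lower of 12 in parental cells (median 0.147) and 3 higher and 0 lower in the DAC-resistant line (median 0.085), to be read beside the same shares. SQSTM1, the autophagy receptor that competes with NRF2 for KEAP1, rose by 1.12 in parental cells, from 15.9 and 15.5 FPKM to 35.6 and 35.1 FPKM, and by 0.33 in the resistant line (adjusted p = 0.0025). NFE2L1, a relative of NRF2 that also binds antioxidant response elements, fell by 0.66 in parental cells (adjusted p = 3.6e-05), from 68.5 and 68.2 FPKM to 42.8 and 42.9 FPKM, and rose by 0.54 in the resistant line (adjusted p = 0.0017), from 44.3 and 40.1 FPKM to 61.9 and 61.4 FPKM.

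Over the 6 pathway lists together, without the ATF4 list and the markers, 78 of 86 genes were tested. DAC raised 37 and lowered 22 of them in parental cells (median 0.158, beside 0.057 for all genes), where 33.6% of all genes tested were called higher and 24.1% lower. CBR1 and GPX3, whose rises the filter favoured, are among the 37. It raised 8 and lowered 7 in the DAC-resistant line (median -0.008, beside 0.007), where these shares were 5.88% and 5.35%.

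DAC-resistant cells differed from parental cells already in the untreated state. With DMSO, NQO1 was 1.77-fold, SLC7A11 1.67-fold, GCLC 1.51-fold, SRXN1 2.29-fold and TXNRD1 1.12-fold higher in DAC-resistant cells. GCLM was at 0.691, HMOX1 at 0.612 and NFE2L2 at 0.855 of the parental level. In this comparison 5 members were higher and 3 lower, beside 31.3% of all genes tested called higher and 26.2% lower. The filter favoured SRXN1 as higher and HMOX1 as lower, so these genes are no support for that count. By the stricter rule 0 members were called, beside 8.73% of all genes.

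The differences on the log2 scale were 0.80 for NQO1 (SE 0.056, limma adjusted p = 4.3e-05), 0.70 for SLC7A11 (SE 0.04, adjusted p = 1.8e-05) and 0.44 for GCLC (SE 0.085, adjusted p = 0.0042). For GCLM the difference was -0.50 (SE 0.048, adjusted p = 0.00018) and for NFE2L2 it was -0.21 (SE 0.033, adjusted p = 0.0017). KEAP1 differed by -0.077 (95% interval -0.174 to 0.020, adjusted p = 0.15), and quantile normalization made it a call (-0.174, adjusted p = 0.01, the lowest over all alternatives). The groups did not overlap for any of these genes. That held for KEAP1 as well, which did not pass the main test. With so few libraries per group, a lack of overlap is weak evidence of a difference. The share of all genes tested without overlap is not given here, so the lack of overlap is no support for these calls. The 3 remaining calls were less firm. HMOX1 differed by -0.39 (adjusted p = 0.024), a call that was lost with a pseudocount of 0.1 (-0.652, adjusted p = 0.061), with TPM (-0.513, adjusted p = 0.082), without a filter (-0.387, adjusted p = 0.14) and on leaving out any library but those of the DAC-resistant DAC group or the second parental DMSO library (adjusted p from 0.0055 to 0.14 and differences from -0.706 to -0.311 over all alternatives). SRXN1 differed by 0.55 (adjusted p = 0.025), which fell to 0.36 (adjusted p = 0.12) without the second parental DMSO library and was not called without a filter (adjusted p = 0.14) or without either DAC-resistant DMSO library (0.0045 to 0.14 over all alternatives). TXNRD1 differed by 0.157 (adjusted p = 0.0038), which quantile normalization reduced to 0.046 (adjusted p = 0.25, the highest over all alternatives).

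Among the other lists in this comparison, to be read beside the 31.3% of all genes called higher and 26.2% lower, ATF4 genes were higher in 16 and lower in 4 of 24 (median 0.23), with CHAC1 2.75-fold higher. Of the monocyte and macrophage markers, 1 was higher and 7 lower of 11 (median -0.43). CD14, among the 7, would not have passed the filter on DAC-resistant libraries alone, so it is no support for that count. Thioredoxin genes were higher in 8 and lower in 2 of 13, and TXNIP had the largest difference of them (-3.20), from 299.4 and 300.3 FPKM in parental cells to 31.5 and 32.1 FPKM. Heme and iron genes were higher in 4 and lower in 3 of 10, with TFRC 5.18-fold higher. Quinone and carbonyl genes were higher in 5 and lower in 3 of 12, NADPH genes higher in 5 and lower in 2 of 7, glutathione genes higher in 12 and lower in 7 of 24, and partners of NRF2 higher in 4 and lower in 4 of 12. AKR1C1 and CBR3, among the higher quinone and carbonyl genes, would not have passed the filter on parental libraries alone. The filter thus favoured them, and they are no support for that count.

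With DAC in both cell lines the widest gaps were those of HMOX1 and SLC7A11. SLC7A11 was 4.59-fold higher in DAC-resistant cells (2.04, SE 0.04, limma adjusted p = 1.5e-07) and HMOX1 was at 0.0273 of the parental level (-3.79, SE 0.113, adjusted p = 6.9e-07). KEAP1 was lower by 0.60 (adjusted p = 2.1e-05), NFE2L2 by 0.44 (adjusted p = 4e-05) and GCLM by 0.26 (adjusted p = 0.0029), although the GCLM call was lost with values rescaled to TPM (-0.144, adjusted p = 0.059) and with upper-quartile scaling (-0.096, adjusted p = 0.10, the highest over all alternatives). SRXN1 was higher by 0.47 (adjusted p = 0.039) and TXNRD1 by 0.117 (adjusted p = 0.011). The SRXN1 call was lost without the second parental DAC library, where the value was 0.33, and without any 1 of the 4 DAC-resistant libraries (0.39 to 0.55), as well as without a filter (adjusted p = 0.16) and with a pseudocount of 0.1 (0.988, adjusted p = 0.055), where the difference itself was larger, with a range of 0.0038 to 0.17 over all alternatives. The TXNRD1 call was lost without the second DAC-resistant DAC library, where the value was 0.099, and with quantile normalization (0.049). NQO1 differed by 0.012 (95% interval -0.122 to 0.146, adjusted p = 0.86), and GCLC by -0.21 (95% interval -0.416 to -0.009, adjusted p = 0.062). In all, 3 members were higher and 4 lower, beside 32% and 35.1% of all genes tested. With quantile normalization 2 were higher and 4 lower, beside 36.2% and 31.1%, and with upper-quartile scaling 4 were higher and 3 lower, beside 40.4% and 26.8%. Without rescaling 2 passed the stricter rule, beside 14.5%. The filter favoured SRXN1 as higher and HMOX1 as lower, so these genes are no support for the counts of members. Of the other lists, by the same test and beside 32% and 35.1%, 23 of 24 ATF4 genes were higher and 1 lower (median 1.44). Of 11 monocyte and macrophage markers, 0 were higher and 11 lower (median -1.96). CD14, CD68 and CD86, among these 11, would not have passed the filter on DAC-resistant libraries alone, so they are no support for this count. Heme and iron genes were higher in 2 and lower in 7 of 10, with FTH1 at 0.334 of the parental level. Glutathione genes were higher in 13 and lower in 9 of 24, quinone and carbonyl genes in 6 and 4 of 12, and thioredoxin genes in 5 and 6 of 13. NADPH genes were higher in 3 and lower in 3 of 7, and partners of NRF2 in 2 and 5 of 12. The filter favoured AKR1C1 and CBR3 as higher and CBR1, GPX3 and GGT1 as lower, so they are no support for these counts.

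**Figure D3:**
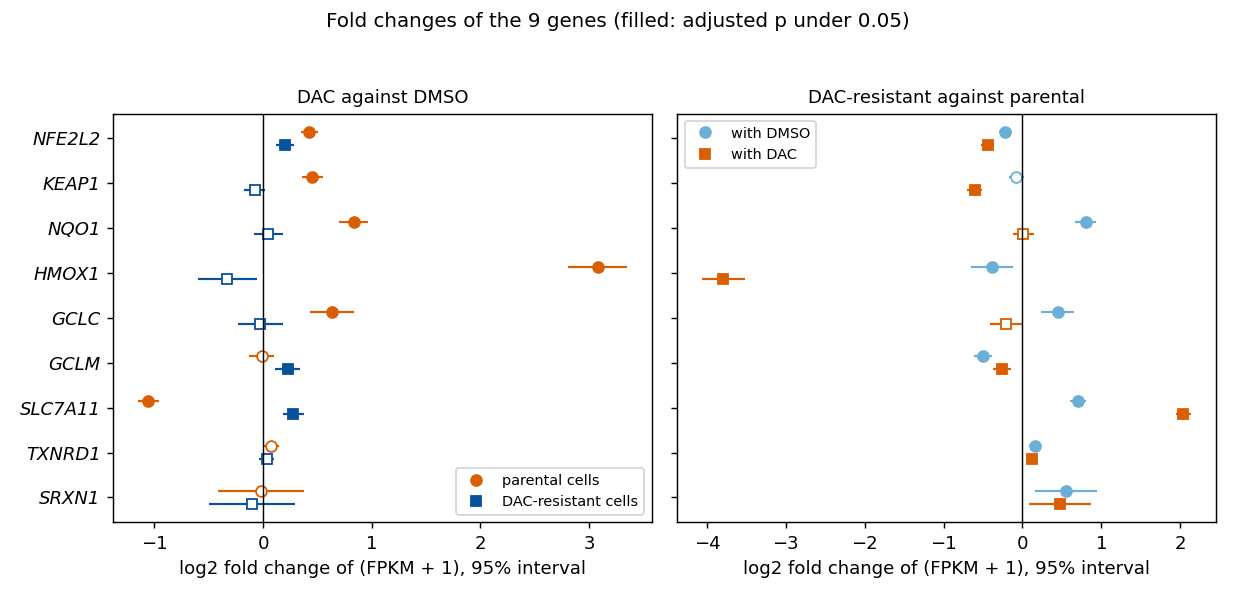
Log2 fold change of FPKM + 1 with its 95% interval (x axis) for the 9 genes (rows), for DAC against DMSO in each cell line (left) and for DAC-resistant against parental cells with each treatment (right), with filled symbols for an adjusted p under 0.05. HMOX1 (3.08) and SLC7A11 (-1.06) stand out with DAC in parental cells, and the symbols of DAC-resistant cells lie between -0.33 and 0.28.

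The difference between the DAC effects of the 2 cell lines was tested directly, as the effect in DAC-resistant cells minus that in parental cells. It passed for 7 of the 9 genes, of which 2 were higher and 5 lower, beside 20.9% and 28.4% of all genes tested. Quantile normalization gave 2 higher and 5 lower, beside 27.3% and 23.4%, and upper-quartile scaling gave 2 higher and 4 lower, beside 27.5% and 22%. By the stricter rule 2 members passed, beside 10.6%. HMOX1 (-3.41, limma adjusted p = 1.3e-05), NQO1 (-0.79, adjusted p = 0.00032), GCLC (-0.66, adjusted p = 0.0043), KEAP1 (-0.53, adjusted p = 0.00045) and NFE2L2 (-0.22, adjusted p = 0.008) rose less with DAC in DAC-resistant cells, or did not rise there. SLC7A11 (1.34, adjusted p = 8.3e-06) and GCLM (0.24, adjusted p = 0.025) went the other way. TXNRD1 (-0.040, 95% interval -0.140 to 0.059) and SRXN1 (-0.082, 95% interval -0.637 to 0.472) did not pass. The comparisons of this study share libraries, since each group enters more than 1 of them, so their values are not independent of each other. A single gene could not be tested by permutation, since an exact two-sided test of 2 libraries against 2 cannot go below p = 0.333.

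Genes whose log2 levels ran most alike over the 8 libraries differed from member to member, given here with Pearson's r as a description over points that share cell line and treatment. They were SAMD9L (0.999) and C3AR1 (0.999) for HMOX1, ZNF280A (0.996) and RAB1A (0.994) for NQO1, and IMPAD1 (0.998) and ARHGAP11A (0.998) for SLC7A11. For GCLC they were GPANK1 (0.991) and TIMM13 (0.986), for GCLM CLASP1 (0.990) and CNIH4 (0.989), and for TXNRD1 TRIM38 (0.993) and GPBP1 (0.991). For NFE2L2 they were USP24 (0.994) and S100A11 (0.993), and for KEAP1 COA6 (0.996) and H2AW (0.996). SRXN1 had the weakest match, CEP89 (0.972), followed by ENSG00000272345 (0.965). No member was among the 2 genes most like another member.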

How the data were processed

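Poly(A) RNA libraries of THP-1 cells were sequenced on an Illumina platform. Per the paper's methods and the submitters' processing notes, the authors used cutadapt 1.9.1 for trimming, HISAT2 2.1.0 for alignment to hg38, SAMtools 1.6, and HTSeq 0.13.5 for counts on Ensembl GRCh38 genes. The strand setting is not given in the sources used here. The authors deposited FPKM values multiplied by 1000, which were divided by 1000. Scaling by library total makes each value relative to the other genes of its library.

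For the main test, limma 3.58.1 (R 4.3.3) fitted log2(FPKM + 1) for the 14899 genes that reached 1 FPKM in 2 or more of the 8 libraries, with 1 mean per group and a variance trend (prior degrees of freedom 2.50, residual 4). P-values were adjusted by Benjamini-Hochberg across the 14899 genes, and fold changes on this scale understate those of low genes. Ratios are of mean FPKM. The fit was tested on simulated data.

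Whole reads were recovered from the steps of the FPKM values with GENCODE v44 exon lengths (34961 of 39592 genes above 0), another length (4291) or approximately (340), within a tolerance of 0.02 reads. The sums came to 99.97% to 99.99% of the scaling totals. NFE2L2 was solved at 5671 bases, not at its GENCODE length of 14975, so the authors' annotation differs there, and its overlap with HNRNPA3 is that of GENCODE. Gene positions are GENCODE positions on GRCh38.

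The members and lists were chosen with earlier results of these data known. The named genes are the 9 members in every comparison, at most 3 genes per list with the largest changes among those passing, and the 2 genes most alike to each member. Other list genes are named where the filter favoured their call. Single values of 2 list genes are not reported here. ATF4, SLC3A2, and genes named again in another comparison or with values in every group were chosen after their values were seen. Alternatives were a pseudocount of 0.1, no filter, a mean of at least 5 FPKM, TPM, quantile and upper-quartile scaling, a replicate block, only the libraries compared, voom on recovered reads, leaving out each replicate, and the stricter call rule.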

Additional observations from a re-analysis of the deposited data

Results flagged for a closer look

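The response to DAC was not the same in both cell lines for 7 of the 9 genes, by limma's test of the difference itself. Of all genes tested, 20.9% were called higher and 28.4% lower by the same test. In DAC-resistant minus parental cells, the log2 difference was -3.41 for HMOX1, -0.79 for NQO1, -0.66 for GCLC, -0.53 for KEAP1, -0.22 for NFE2L2, 0.24 for GCLM and 1.34 for SLC7A11. The call for NFE2L2 was lost with upper-quartile scaling (-0.092, adjusted p = 0.16, the highest of its alternatives). The call for GCLM was lost without a filter (adjusted p = 0.11, the highest of its alternatives) and without any of 5 single libraries, both parental DMSO ones, the first parental DAC one and the second of each DAC-resistant group (adjusted p from 0.052 to 0.077). The other 5 calls, at an adjusted p under 0.05, held in every other fit run in which the gene was kept.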

How the results depend on the processing

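The number of members passing in the 5 comparisons was 6 with DAC in parental cells, 3 with DAC in DAC-resistant cells, 8 between the cell lines with DMSO, 7 with DAC and 7 for the difference of the effects. Of all genes tested, 33.6%, 5.88%, 31.3%, 32% and 20.9% were called higher in the same order. Called lower were 24.1%, 5.35%, 26.2%, 35.1% and 28.4%. Both counts between the cell lines include HMOX1 and SRXN1, whose difference between the lines the filter favoured. By the stricter rule the number of members was 2, 0, 0, 2 and 2, beside 9.31%, 0.235%, 8.73%, 14.5% and 10.6% of all genes. For DAC in DAC-resistant cells the number of members was 0 without a filter, where 286 of 60664 genes were called higher and 268 lower. Each of the 3 calls there was lost on leaving out single libraries, as given above for NFE2L2, GCLM and SLC7A11. Calls over all genes fell as well in each fit without 1 library. Changes of sign were seen only in values that had not passed. Leaving out 1 library gave -0.007 to 0.101 for NQO1 with DAC in DAC-resistant cells, -0.116 to 0.067 for GCLC there, -0.068 to 0.040 for GCLM and -0.210 to 0.174 for SRXN1 with DAC in parental cells, -0.050 to 0.074 for NQO1 between the lines with DAC, and -0.275 to 0.110 for the difference of the effects on SRXN1. Quantile normalization gave -0.041 for NQO1 between the lines with DAC, -0.004 and -0.001 for TXNRD1 with DAC in parental and in DAC-resistant cells, and 0.003 for TXNRD1 and 0.201 for SRXN1 in the difference. Upper-quartile scaling gave -0.066 for TXNRD1 with DAC in parental cells and 0.092 in the difference, where TPM gave 0.014. The causes were not tested. Upper-quartile scaling moved the median of all genes from 0.057 to -0.057 with DAC in parental cells, from -0.031 to 0.108 between the lines with DAC and from -0.053 to 0.055 in the difference, and quantile normalization moved the first of them to -0.053 and the last to 0.051. GCLC between the lines with DAC passed with voom (-0.263, adjusted p = 0.008) and without either DAC-resistant DMSO library (-0.213, adjusted p = 0.047 and 0.046), NQO1 there with upper-quartile scaling (0.18, adjusted p = 0.017), GCLM with DAC in parental cells with the same scaling (-0.149, adjusted p = 0.028), KEAP1 between the untreated lines with quantile normalization (-0.174, adjusted p = 0.01), and HMOX1 with DAC in DAC-resistant cells without the first DAC-resistant DAC library (-0.492, adjusted p = 0.046). Replicates of the same number did not deviate together in gene levels (r from -0.022 to 0.020 between groups). Whether they shared a culture or a preparation is not in the labels, and these values do not show it. The fit with the replicate block gave 6, 2, 8, 7 and 7 members passing. Over all 14899 genes it called 4890, 648, 4551, 4674 and 3000 higher and 3474, 599, 3824, 5146 and 4059 lower, in the same order. Of the values of single members under the alternatives, 669 kept their direction and side of the threshold, 48 lost the call, 7 gained one and 19 changed sign. Read numbers were lowest for SRXN1 (26 to 98 reads) and HMOX1 outside parental cells with DAC (27 to 120 reads).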
